A study of Caenorhabditis elegans with 123 samples.

Results

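Wild-type and mex-3(zu155); skn-1(RNAi) embryos of Caenorhabditis elegans were compared at 83 min after the 4-cell stage at 22 °C, near the middle of a time course of early embryogenesis. The 8 arrays with this time on their label were taken, 4 of each genotype, which is 6.5% of the arrays in the series. The wild type is the N2 strain, for which the labels name no RNAi treatment, and its arrays carry the replicate numbers 1 to 4. The mutant embryos carry the zu155 allele of mex-3 and were also treated with RNA interference against skn-1. They are called mex-3/skn-1 here and their arrays carry the numbers 5 to 8. Each array measured total RNA of whole staged embryos, so that a level is an average over all lineages, and fewer cells of a type cannot be told apart from less RNA per cell. No array of embryos with only 1 of these perturbations was used, so the share of mex-3 and of skn-1 in a difference cannot be told apart. At the same age 3 arrays measured embryos with the zu154 allele of pie-1 and RNAi against pal-1, named pie-1/pal-1 below, and these serve as a second reference for genes downstream of pal-1.

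MEX-3 is a maternal KH-domain RNA-binding protein that keeps pal-1 mRNA from being translated in the anterior of the early embryo. Without it the caudal-type homeodomain protein PAL-1, which specifies the posterior C and D lineages with their body muscle and epidermis, is made in anterior descendants as well. SKN-1 is a maternal transcription factor that specifies the EMS blastomere. EMS divides into E, which makes the whole intestine through the GATA factors END-1, END-3, ELT-7 and ELT-2, and MS, which makes posterior pharynx and body muscle through TBX-35, CEH-51 and PHA-4. The anterior AB lineage makes most neurons, much of the epidermis and the anterior pharynx, and Notch signals divide it into its sublineages.

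The values are log2 levels as the authors deposited them, 1 per probe set (a group of probes for 1 transcript) and array. The medians of the 8 arrays over all tested probe sets ran from 3.31 to 3.37, and a level under 4 is called near the floor here, where a true fold is understated. Whether the arrays of a group stem from independent embryo collections is unstated in the labels. The p-values therefore reflect array-to-array spread, part of which may be technical. The N2 arrays lay close together, with a mean correlation of each to the other N2 arrays of 0.985 to 0.988 across probe sets, against 0.952 to 0.968 among the mex-3/skn-1 arrays. In mex-3/skn-1 replicates 5 and 7 the brighter probe sets, averaging 5 or more over all arrays, had medians of 6.01 and 5.67. In replicates 6 and 8 these were 6.29 and 6.21, and in N2 they ran from 6.32 to 6.39. The difference between the 3' and 5' probe sets of GAPDH, a measure of RNA integrity, was 1.04 to 1.24 in mex-3/skn-1 and 0.53 to 0.85 in N2, without overlap. Per the array description files, all 4 mex-3/skn-1 arrays came from 1 scan day and 1 chip lot, neither of them shared with N2, and N2 replicate 4 was a rehybridisation. They give 0.7 ug hybridised for mex-3/skn-1 replicate 5 and 1 ug for replicates 6, 7 and 8. The embryos numbered 67, 75, 69 and 54 in mex-3/skn-1 replicates 5 to 8, and no such entry was read for N2. Scan day, chip lot and RNA integrity cannot be told apart from genotype, and counts are also given without replicates 5 and 7, a choice made after seeing the data.

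**Figure D1:**
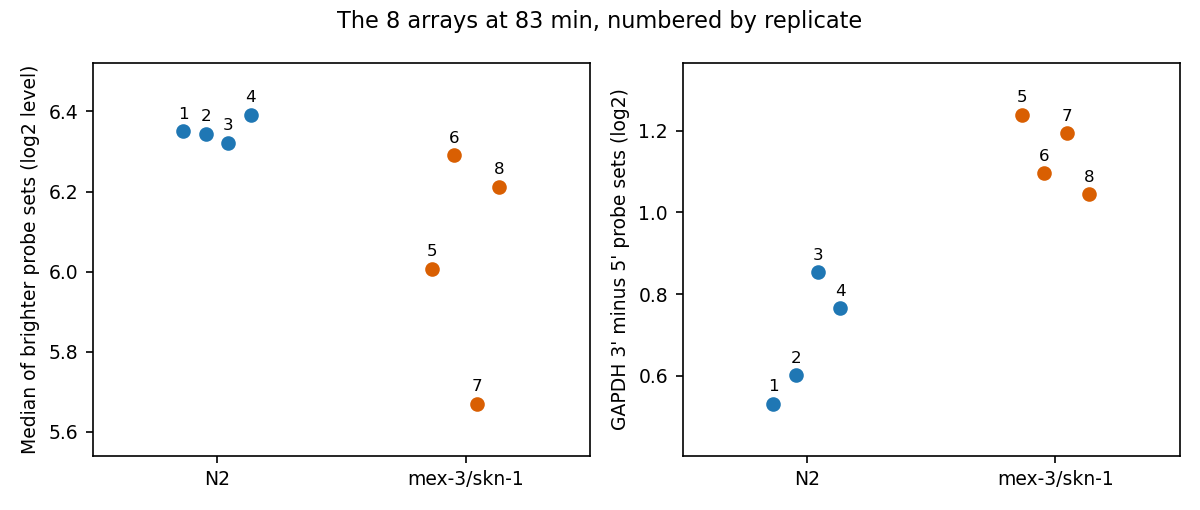
Median level of the brighter probe sets (left, log2) and GAPDH 3' minus 5' difference (right, log2) of the 8 arrays, each point 1 array with its replicate number. The mex-3/skn-1 replicates 5 and 7 lie lowest on the left at 6.01 and 5.67, and all mex-3/skn-1 arrays lie above the N2 arrays on the right.

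Of 22548 probe sets 914 differed between mex-3/skn-1 and N2 by limma's moderated test, at an adjusted p under 0.05 and at least 2-fold, which is 4.05% of those tested. Only these are said to be higher or lower, or to be called. Of the called probe sets 763 were lower in mex-3/skn-1 and 151 higher. At least 4-fold differences were found for 103 lower and 16 higher probe sets, and 8-fold differences for 27 and 2. Each gene is represented by its brightest probe set below, and over 17118 genes 582 were lower (3.4%) and 125 higher (0.73%). These shares are the background for every gene list that follows. Members and lists were chosen with earlier results of these data known, so a count above the background is no independent evidence. Only 3050 of these genes averaged 5 or more, and only 5 of the 763 lower probe sets averaged under 4 in N2. Lists of brighter genes therefore have more room for lower calls than the 3.4% reflects. The share among brighter genes is not given here. The 4 arrays of 1 genotype lay wholly above the 4 of the other for 733 of the 763 lower and 139 of the 151 higher probe sets, and for 16.8% of all probe sets.

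The balance of lower and higher calls depended on how the arrays were scaled. The median difference was 0.00 over all probe sets and -0.28 over the 3864 probe sets averaging 5 or more in these 8 arrays. Quantile normalization gave 442 lower and 315 higher calls, 41.6% higher, in place of 763 lower and 151 higher. Centring each array on its brighter probe sets gave 396 lower and 346 higher calls, 46.6% higher. All 151 higher probe sets stayed called under both. Without replicates 5 and 7 the counts were 364 lower and 187 higher, and 478 of the 914 probe sets stayed called. Over genes these are 294 lower (1.72%) and 149 higher (0.87%).

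**Figure D2:**
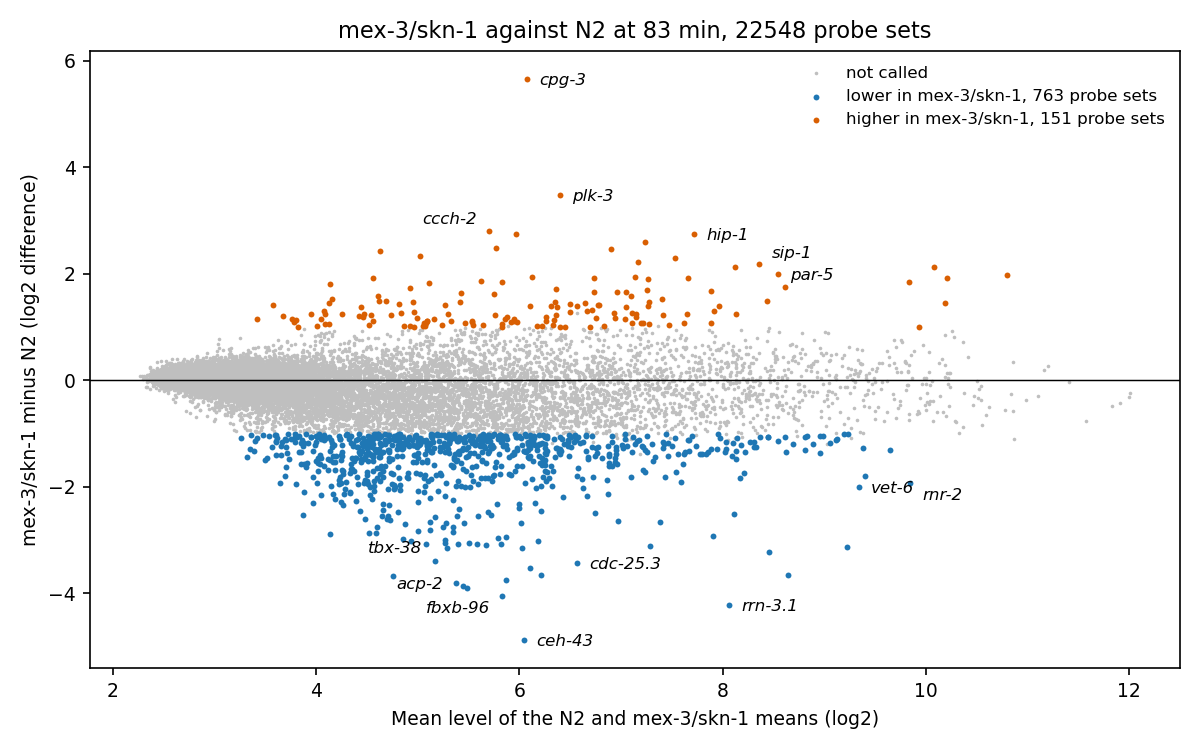
Difference between mex-3/skn-1 and N2 at 83 min (y axis, log2) against the level averaged over both genotypes (x axis, log2), 1 point per probe set. The 763 lower probe sets (blue) reach -4.87 for ceh-43 and the 151 higher ones (orange) reach 5.66 for cpg-3. Labels mark genes described in the text.

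The targeted genes were read first. The mex-3 transcript measured 4.93, 5.54, 5.40 and 5.56 in N2 replicates 1 to 4 and 3.79, 3.84, 3.20 and 3.72 in mex-3/skn-1 replicates 5 to 8. The groups did not overlap and the mutant arrays were near the floor, a difference of -1.72 ± 0.52 (SE, adjusted p = 0.0209), and the other probe set was lower too, by -1.88 ± 0.23. By 83 min N2 had lost most of its mex-3, which stood at 8.37 at 0 min, where the difference was -4.86. The call of the brighter probe set was lost without N2 replicate 2 (-1.66) or 4 (-1.65) or mex-3/skn-1 replicate 7 (-1.58), and with quantile normalization (-1.54). The skn-1 transcript was near the floor in both genotypes, at 3.63 to 3.68 in N2 and 3.25 to 4.19 in mex-3/skn-1, so that at this time it tells nothing about the RNAi.

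The pal-1 transcript measured 7.18, 6.82, 6.78 and 6.62 in N2 and 7.80, 7.98, 7.67 and 8.06 in mex-3/skn-1. Every mutant array lay above every N2 array, by 1.03 on average. The fit over all arrays of the series gave this an SE of 0.79 and did not call it (adjusted p = 0.570), and the other 2 probe sets gave 0.74 and 0.49 without a call. In a fit of the 8 arrays alone, whose spread does not include that of the pal-1(RNAi) arrays, the brightest probe set was called (adjusted p = 0.00125).

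The transcription factors of the endoderm and MS lineages that N2 embryos had switched on by 83 min were lower in mex-3/skn-1. Of 16 measured genes of the endoderm cascade 3 were lower and none higher, and of 18 genes of MS and pharynx 2 were lower and none higher, against 3.4% of all genes lower. The median differences of the lists were 0.02 and 0.04, beside 0.01 over all genes, and 12 and 13 of the members were near the floor in both genotypes. Among those at the floor in N2 were end-3 (3.33), the intestinal GATA factor elt-2 (3.51), tbx-35 (2.69), the pharyngeal homeobox gene ceh-22 (2.85) and pharyngeal myosin myo-2 (3.14). A difference in them was not measurable at this stage.

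The early endoderm GATA factor gene end-1 measured 6.30, 6.30, 6.45 and 6.98 in N2 and 3.56, 4.40, 5.50 and 4.59 in mex-3/skn-1. All 4 mutant arrays were below all N2 arrays, and replicate 5 was at the floor while replicate 7 kept the most, for a difference of -1.99 ± 0.26 (adjusted p = 2.70e-09). For dve-1, which encodes a homeodomain protein, N2 arrays measured 6.20, 6.50, 6.68 and 6.45 and mex-3/skn-1 arrays 3.35, 3.78, 4.48 and 3.95. They did not overlap (-2.57 ± 0.27, adjusted p = 8.08e-13), and the second probe set was lower as well, by -1.0. The GATA factor gene elt-7 ran from 5.00 to 5.06 in N2 and from 3.69 to 4.13 in mex-3/skn-1, a difference of -1.05 ± 0.20. This is close to the 2-fold minimum, and the call was lost without replicate 5 (-0.96) and under quantile normalization (-0.80), while end-1 and dve-1 stayed called under both. Without replicates 5 and 7 the lists kept 2 lower members each.

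The NK-type homeobox gene ceh-51, which acts in the MS lineage, measured 7.74, 7.18, 7.23 and 7.21 in N2 and 3.51, 4.61, 5.13 and 4.32 in mex-3/skn-1. No array overlapped (-2.94 ± 0.26, adjusted p = 6.63e-16), and as for end-1 replicate 5 was lowest and replicate 7 highest among the mutant arrays. The FoxA gene pha-4, the organ identity gene of the pharynx, measured 6.31, 6.18, 6.11 and 6.32 in N2 and 3.96, 3.08, 4.05 and 3.02 in mex-3/skn-1. All mutant arrays were at or near the floor (-2.70 ± 0.25, adjusted p = 2.23e-15), and the second probe set was lower by -1.21. The sma-1 transcript, for a spectrin, and the eya-1 transcript, for an Eyes absent homologue, were well measured and not called, at -0.59 ± 0.26 and 0.09 ± 0.29.

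Pie-1/pal-1 embryos expressed these regulators at the same time. Their arrays measured 7.17 to 7.21 for end-1, 6.89 to 7.03 for dve-1, 6.24 to 7.18 for ceh-51 and 6.45 to 6.85 for pha-4. Set against pie-1/pal-1, mex-3/skn-1 was lower in 3 of 16 endoderm genes and in 3 of 18 genes of MS and pharynx, against 2.81% of all genes lower and 2.39% higher. The differences were -2.68 ± 0.28 for end-1 and -3.17 ± 0.27 for pha-4. Both comparisons use the same mex-3/skn-1 arrays. The pie-1/pal-1 mean was above that of N2 for end-1 (7.19 against 6.51), dve-1 (6.96 against 6.46) and pha-4 (6.69 against 6.23). For ceh-51 it was below (6.67 against 7.34). These embryos are mutants themselves, so a difference from them may lie in either genotype.

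The sdz genes, short for skn-1-dependent zygotic transcripts, were named in earlier work for their loss on skn-1 depletion, and their direction here is therefore no independent finding. Of 32 measured members 8 were lower and none higher, against 3.4% and 0.73% of all genes, with a median of -0.37. The largest was sdz-27, which measured 6.88, 6.59, 7.00 and 6.87 in N2 and 5.52, 5.14, 4.75 and 5.46 in mex-3/skn-1. Its groups did not overlap, with a difference of -1.62 ± 0.33 (adjusted p = 2.01e-04). The differences were -1.61 ± 0.36 for sdz-26, -1.25 ± 0.23 for sdz-13, -1.2 ± 0.28 for sdz-18, -1.15 ± 0.29 for sdz-38 and -1.14 ± 0.29 for sdz-33. Only 3 members stayed lower under quantile normalization and 2 without replicates 5 and 7, and leaving out 1 array gave 5 to 10. The call of sdz-38 was lost without replicate 5 (-1.0) and that of sdz-33 without replicate 7 (-0.84). The well measured sdz-28 (-0.93 ± 0.28), sdz-14 (0.16 ± 0.24) and sdz-4 (-0.88 ± 0.28) were below the 2-fold minimum.

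The sdz-38 transcript was past its peak in N2 by 83 min. It averaged 7.66 at 53 min, 7.44 at 66 min and 5.58 at 83 min, whereas in mex-3/skn-1 it averaged 4.86, 4.77 and 4.43. The difference narrowed from -2.79 at 53 min to -1.15, and the groups overlapped at 83 min through mex-3/skn-1 replicate 6 at 5.36.

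Among anterior and neural regulators a subset was lower in mex-3/skn-1. Of 37 measured genes 9 were lower, against 3.4% of all genes, none was higher and 28 were not called. A count of 9 was found without replicates 5 and 7 and under quantile normalization. The list's median was 0.02, since 22 members were near the floor in both genotypes. The mean level of the list ran from 4.25 to 4.33 in the N2 arrays and from 3.68 to 3.76 in the mex-3/skn-1 arrays.

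The Distal-less homeobox gene ceh-43 showed the largest decrease of all probe sets. It measured 8.75, 8.38, 8.26 and 8.53 in N2 and 3.65, 3.59, 3.59 and 3.61 in mex-3/skn-1. The mutant arrays were uniformly at the floor, a difference of -4.87 ± 0.25 or 29.3-fold (adjusted p = 2.33e-29). In N2 the transcript averaged 3.44 at 41 min, 4.97 at 53 min and 5.11 at 66 min before it reached 8.48, and in mex-3/skn-1 it averaged 3.41 to 4.23 at every time from 0 to 186 min.

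The other 8 called regulators of this list were lower by less than ceh-43. The Six-family gene ceh-32 measured 6.69, 6.46, 6.64 and 6.32 in N2 and 4.04, 3.62, 3.84 and 3.39 in mex-3/skn-1 (-2.80 ± 0.26), and its second probe set was lower by -1.22. The Otx-type gene ceh-36 measured 6.34, 5.51, 6.17 and 6.16 in N2 and 3.51, 3.32, 3.38 and 3.46 in mex-3/skn-1 (-2.63 ± 0.21). Neither overlapped between genotypes. The other Otx-type gene ceh-37 was lower by -1.89 ± 0.22, with -1.94 by its second probe set, and the Zic-type zinc finger gene ref-2 by -2.13 ± 0.25. The forkhead gene fkh-2 was lower by -1.76 ± 0.22. Proneural bHLH genes were among the called members too, namely the neurogenin gene ngn-1 and the achaete-scute genes hlh-3 and hlh-14. For hlh-14 the N2 arrays measured 4.63, 5.15, 5.33 and 5.38 and the mex-3/skn-1 arrays 3.54, 4.42, 3.52 and 3.47 (-1.38 ± 0.30). The proneural gene lin-32, at 2.86 in N2, and the forkhead gene unc-130, at 3.18, were at the floor in both genotypes. Among well measured members that were not called, the zinc finger gene die-1 stood at -0.91 ± 0.24, the E protein gene hlh-2 at -0.94 ± 0.32 and the Aristaless gene alr-1 at 0.08 ± 0.24. A second die-1 probe set was called lower (-1.17), and a second fkh-2 probe set was not called (-0.67).

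**Figure D3:**
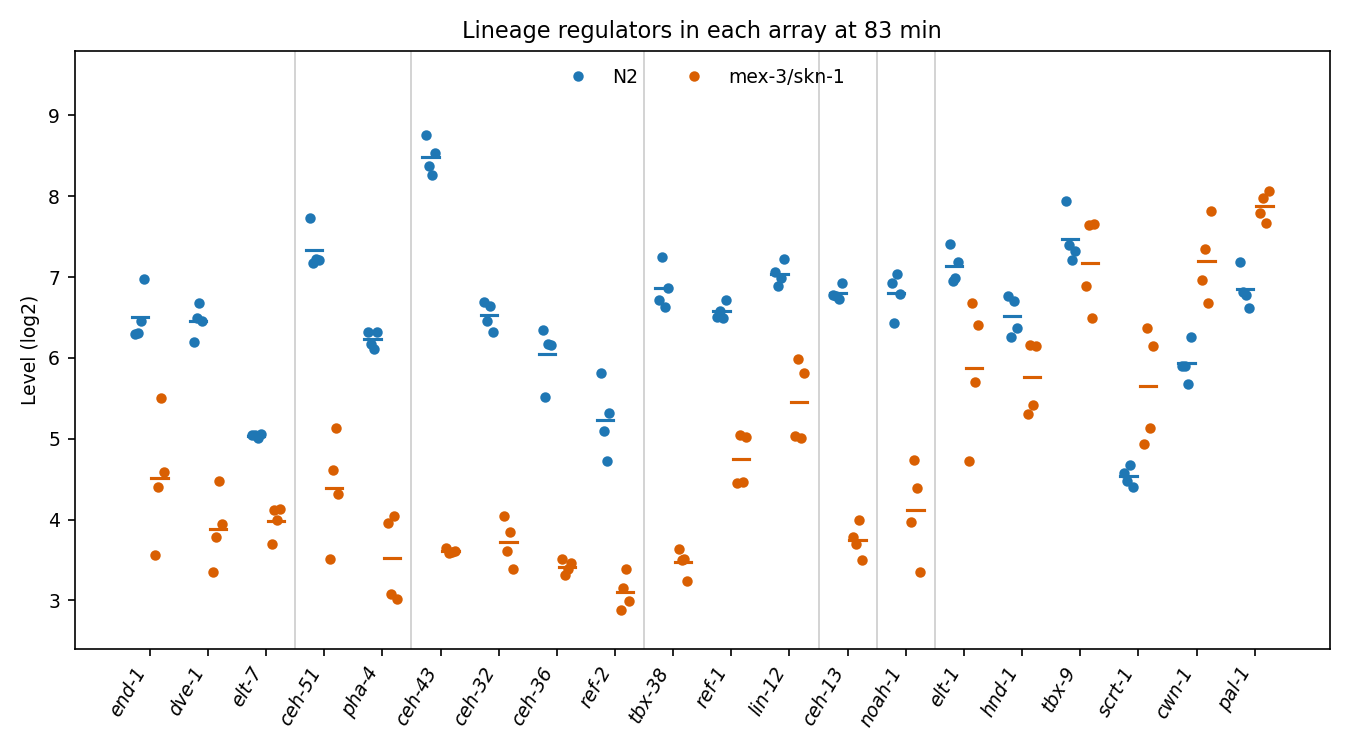
Log2 level of 20 lineage regulators in each of the 4 N2 (blue) and 4 mex-3/skn-1 (orange) arrays, with the mean as a bar and lines between groups of genes. The genes from end-1 to noah-1 lie lower in every mex-3/skn-1 array, as do elt-1 and hnd-1, tbx-9 overlaps, and the scrt-1, cwn-1 and pal-1 points of mex-3/skn-1 lie above those of N2. The differences of hnd-1, tbx-9, cwn-1 and pal-1 were not called.

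Of 16 measured genes of the Notch pathway and its AB targets 5 were lower, against 3.4% of all genes, none was higher and 11 were not called. The median was -0.70, beside -0.27 over genes with a mean of at least 5, and 4 were lower without replicates 5 and 7. The T-box gene tbx-38, which acts with its paralogue tbx-37 to induce mesoderm in anterior AB descendants where Notch does not repress them, measured 6.71, 7.24, 6.64 and 6.86 in N2. In mex-3/skn-1 it measured 3.63, 3.50, 3.51 and 3.23, at the floor in each array (-3.39 ± 0.26, adjusted p = 4.43e-19). The tbx-37 transcript was lower by -1.48 ± 0.22. The REF-1 family bHLH gene ref-1, a direct Notch target, measured 6.51, 6.58, 6.50 and 6.72 in N2 and 4.46, 5.04, 4.47 and 5.02 in mex-3/skn-1. It kept a level above the floor and did not overlap (-1.83 ± 0.26).

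Of the pathway's own components, the Notch receptor gene lin-12 was lower by -1.58 ± 0.32, and its call was lost without replicates 5 and 7 together (-1.15). The ligand gene lag-2 was lower by -1.02 ± 0.16, at 3.97 to 4.46 in N2 and 3.15 to 3.57 in mex-3/skn-1, so close to the 2-fold minimum that leaving out any of 6 of the 8 arrays ended the call, at -0.96 to -1.0. The presenilin gene sel-12 (-0.80 ± 0.30), the DNA-binding effector gene lag-1 (-0.70 ± 0.25) and the gamma-secretase subunit gene pen-2 (-0.56 ± 0.30) were not called.

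Against 3.4% of all genes lower and 0.73% higher, 1 of 10 genes of the Hox clusters and their cofactors was lower and none higher. This was ceh-13, the labial-type Hox gene, which measured 6.78, 6.77, 6.72 and 6.93 in N2 and 3.78, 3.70, 3.99 and 3.50 in mex-3/skn-1. The mutant arrays were near the floor (-3.06 ± 0.29, adjusted p = 2.80e-14). Like ceh-43, it had only begun to rise in N2 at 66 min, at 4.18 on average, with single arrays from 3.36 to 5.19. The cofactor genes ceh-40 (-0.60 ± 0.29), ceh-20 (-0.60 ± 0.27) and unc-62 (-0.40 ± 0.22) were not called by their brightest probe sets, although a second unc-62 probe set was lower by -1.07. Of 23 Wnt pathway genes 3 were lower, against 3.4% of all genes. Leaving out 1 array gave 2 to 6, and leaving out replicates 5 and 7 gave 1, against 1.72% of all genes. The Frizzled receptor gene cfz-2 measured 6.68, 6.57, 6.40 and 6.80 in N2 and 4.34, 4.22, 4.16 and 4.06 in mex-3/skn-1, without overlap (-2.42 ± 0.21), and its second probe set was lower by -2.67. The Wnt ligand gene cwn-2 was lower by -1.15 ± 0.26 and the APC-related gene apr-1 by -1.49 ± 0.37, and the latter was not called without replicate 7 (-1.17). Neither was called without both 5 and 7, at -1.04 and -1.08. The brightest dsh-2 probe set was not called (-0.66), although a second one was called lower (-1.38).

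Genes downstream of PAL-1, and the body muscle and epidermis that C and D make, showed no common shift against N2 where they could be measured. Near the floor in both genotypes were 8 of 15 PAL-1 downstream genes, 18 of 31 body muscle genes and 11 of 25 epidermal genes. A shift in those was not measurable at this stage. Of 15 PAL-1 downstream genes 1 was higher and 1 lower, against 0.73% and 3.4% of all genes, with a median of -0.02. None of 31 body muscle genes was called in either direction by limma's test, nor under quantile normalization or centring on the brighter probe sets, while 6 had an unadjusted p under 0.05. The muscle regulators hlh-1 (3.23 in N2 and 3.13 in mex-3/skn-1) and unc-120 (3.94 and 3.93) and the myosin genes unc-54 (3.71 and 4.03) and myo-3 (2.60 and 2.46) averaged about 4 or less in both genotypes, although single mex-3/skn-1 arrays reached 4.55 for unc-54, 4.97 for unc-120 and 4.15 for hlh-1. Of 25 epidermal genes 2 were lower, against 3.4% of all genes. Leaving out 1 array gave 1 to 4, and leaving out replicates 5 and 7 gave 1, against 1.72% of all genes.

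The higher member was scrt-1, a zinc finger gene of the Scratch type, and it measured 4.58, 4.48, 4.67 and 4.41 in N2 and 4.93, 6.37, 5.14 and 6.15 in mex-3/skn-1. All mutant arrays were above all N2 arrays, but replicates 6 and 8 were well above replicates 5 and 7 (1.11 ± 0.23, adjusted p = 2.12e-04), and without replicate 6 or 8 the difference was 0.87 or 0.94 and below the minimum. The Wnt ligand gene cwn-1, which is expressed in C and D descendants, measured 5.90, 5.90, 5.68 and 6.26 in N2 and 6.96, 7.35, 6.68 and 7.82 in mex-3/skn-1. Again no array overlapped, at 1.27 ± 0.79, and the call depended on the arrays in the fit, with an adjusted p of 0.424 over all arrays of the series and 0.00600 over the 8 arrays alone.

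The GATA factor gene elt-1, which starts epidermal fate, went the other way. It measured 7.41, 6.95, 6.99 and 7.19 in N2 and 4.72, 6.67, 5.71 and 6.41 in mex-3/skn-1 (-1.26 ± 0.38, adjusted p = 0.0230). Replicate 5 was far below the other mutant arrays. The call was lost without N2 replicates 1 (-1.16) or 4 (-1.24) or mex-3/skn-1 replicates 5 (-0.87) or 7 (-1.2), and without both 5 and 7 the difference was -0.59. At 66 min elt-1 had averaged 4.47 in N2 and 3.97 in mex-3/skn-1. The muscle gene hnd-1, which encodes a bHLH factor, stood at 6.52 in N2 and 5.76 in mex-3/skn-1 and was not called (-0.76 ± 0.35). The T-box gene tbx-9 overlapped between genotypes (-0.30 ± 0.29), as did the epidermal zinc finger gene lin-26 (-0.30 ± 0.24). The other lower epidermal gene was noah-1, for an apical matrix protein, which measured 6.92, 6.44, 7.03 and 6.80 in N2 and 3.97, 4.74, 4.39 and 3.36 in mex-3/skn-1. It did not overlap (-2.68 ± 0.34, adjusted p = 1.45e-09), and its second probe set was lower by -1.31.

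Against pie-1/pal-1 embryos, in which pal-1 was the RNAi target, mex-3/skn-1 was higher for 3 of the 15 genes downstream of PAL-1 and lower for none, against 2.39% of all genes higher. Some members are known as PAL-1 targets from profiles of such mutant embryos, so their direction is no independent evidence. The cwn-1 transcript measured 2.54 to 3.27 in the 3 pie-1/pal-1 arrays, and mex-3/skn-1 was 4.31 ± 0.85 higher. The scrt-1 transcript, at 3.19 to 4.15 in those arrays, differed by 2.03 ± 0.25 and tbx-9, at 5.74 to 6.43, by 1.18 ± 0.31. For elt-1 (0.50 ± 0.41) and hnd-1 (0.81 ± 0.38) the difference was not called.

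Enzymes of lysosomes and of catabolic pathways held several of the largest decreases. Of 42 measured genes 8 were lower and 2 higher, against 3.4% and 0.73% of all genes. The counts were also 8 and 2 without replicates 5 and 7 and under quantile normalization. The list was chosen with earlier results of these data known, so its share is no independent finding. The acid phosphatase gene acp-2 measured 7.20, 7.10, 7.31 and 7.50 in N2 and 3.66, 3.17, 3.51 and 3.55 in mex-3/skn-1. The mutant arrays were all at the floor (-3.80 ± 0.27, adjusted p = 1.74e-20). The acid sphingomyelinase gene asm-1 measured 8.25, 8.04, 7.98 and 7.93 in N2 and 4.31, 4.20, 4.91 and 4.12 in mex-3/skn-1, without overlap (-3.66 ± 0.24, adjusted p = 2.47e-22). The DNase II gene nuc-1, which degrades DNA in lysosomes, was lower by -3.07 ± 0.30, from 6.35 to 6.91 in N2 to 3.27 to 3.71.

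The kynureninase gene kynu-1, of tryptophan breakdown, was lower by -3.08 ± 0.28, with mutant arrays between 3.19 and 5.08. The glucuronosyltransferase gene ugt-23 was lower by -2.98 ± 0.29 and the aspartyl protease gene asp-4 by -2.76 ± 0.27, with -2.86 by its second probe set. The glyoxylate cycle gene icl-1 and the cathepsin L gene cpl-1 were the other 2 lower members. Those higher were spp-10, for a saposin-like protein, and aass-1, of lysine breakdown. The lysosomal membrane protein gene lmp-1, at 10.14 in N2 and 9.51 in mex-3/skn-1, was not called (-0.63 ± 0.32). In pie-1/pal-1 arrays acp-2 measured 7.52 to 7.97 and asm-1 8.38 to 8.86. At 0 min none of the 6 described with their differences was called, with acp-2 at -0.07, asm-1 at -0.12, nuc-1 at -0.28, kynu-1 at 0.24, ugt-23 at 0.01 and asp-4 at 0.17.

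Other large decreases by the rule for named genes were those of the F-box genes fbxb-96 (-4.06 ± 0.25) and fbxl-5 (-3.52 ± 0.25) and of the acyl-CoA synthetase gene acs-3 (-3.86 ± 0.29). The uncharacterised genes C29F7.2 (-3.89 ± 0.26), T19B10.2 (-3.75 ± 0.31), C05D12.4 (-3.67 ± 0.31) and F36A2.3 (-3.16 ± 0.21) belong with them. The fbxb-96 transcript measured 8.02, 7.72, 7.68 and 8.01 in N2 and 3.74, 3.51, 4.19 and 3.76 in mex-3/skn-1. For all 7 the mutant arrays lay below all N2 arrays, which the rule required. The nitrilase gene nit-1 behaved alike (-2.48 ± 0.24), as 1 of 2 lower genes among 17 targets of skn-1 in stress responses, against 3.4% of all genes. The other was the Mediator gene mdt-15 (-1.45 ± 0.18). The peroxiredoxin gene prdx-2 was the only one called higher (1.01 ± 0.24), and leaving out N2 replicate 1 (0.93) or 3 (1.00) or mex-3/skn-1 replicate 6 (0.99) or 8 (0.92) ended that call.

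Ribosomal RNA probe sets were a separate case. A pair of probe sets of rrn-3.1, a gene of the large ribosomal RNA, were among the largest decreases and were lower by -4.22 ± 0.69 and -3.65 ± 0.67. The first measured 8.18, 10.75, 10.13 and 11.64 in N2 and 5.73, 6.43, 6.06 and 5.58 in mex-3/skn-1. The groups did not overlap, but N2 replicate 1 lay well below the other N2 arrays and the SD of N2 was 1.47. Of the other 3 probe sets 2 were lower as well. A probe set of ule-3 had much the same values, at 8.14, 10.71, 9.75 and 11.66 in N2, while the other ule-3 probe set was near the floor in both genotypes (3.48 and 3.44). The first rrn-3.1 probe set was low in pie-1/pal-1 arrays too, at 5.67 to 7.20, and mex-3/skn-1 did not differ from these (-0.54 ± 0.75). The difference was also present at 0 min (-5.81). None of 72 ribosomal protein genes was called by limma's test, 6 had an unadjusted p under 0.05, and quantile normalization called 1 higher.

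Genes of DNA replication and cell division were lower in part. Of 51 measured genes 10 were lower and none higher, against 3.4% and 0.73% of all genes. The list averaged 7.15 to 7.27 in the N2 arrays, so it had more room for lower calls than these shares reflect. Its median was -0.58, beside -0.27 over genes with a mean of at least 5. Under quantile normalization the median was -0.39 with 8 lower and 1 higher. Leaving out 1 array gave 6 to 15 lower genes. Leaving out replicates 5 and 7 gave 4, against 1.72% of all genes, and a median of -0.34, beside -0.09 over genes with a mean of at least 5.

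The Cdc25-type phosphatase gene cdc-25.3 had the largest difference of the list. It measured 7.90, 8.37, 8.51 and 8.34 in N2 and 5.17, 4.80, 4.31 and 5.14 in mex-3/skn-1, without overlap (-3.42 ± 0.32, adjusted p = 6.38e-15), and the difference was -3.31 without replicates 5 and 7. The related cdc-25.2 was lower by -1.39 ± 0.29 and -1.19 by its second probe set. The ribonucleotide reductase genes rnr-2 and rnr-1 were lower by -1.93 ± 0.25 and -1.74 ± 0.28. For rnr-2 the N2 arrays measured 10.89, 10.93, 10.72 and 10.70 and the mex-3/skn-1 arrays 8.09, 9.58, 9.0 and 8.83. These groups did not overlap either. The replicative helicase gene mcm-4 (-1.16 ± 0.26) and the spindle checkpoint gene mdf-2 (-1.27 ± 0.30) were not called without replicates 5 and 7, at -0.80 and -0.78, and mcm-4 not without replicate 7 alone (-0.96). The cyclin B genes cyb-3 (-0.38 ± 0.16) and cyb-1 (-0.77 ± 0.17) and the helicase gene mcm-7 (-0.85 ± 0.21) stayed below the 2-fold minimum. A second mcm-7 probe set was called lower (-1.31).

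Early zygotic genes outside the sdz list included 6 lower and 1 higher of 26, against 3.4% and 0.73% of all genes. Without replicates 5 and 7 these were 2 and 1, against 1.72% and 0.87%. The forkhead gene pes-1, expressed in early somatic lineages, measured 6.19, 5.92, 5.74 and 6.03 in N2 and 3.20, 3.29, 3.27 and 3.12 in mex-3/skn-1. The mutant arrays were at the floor (-2.75 ± 0.22, adjusted p = 1.56e-18). The FLYWCH zinc finger gene flh-3 was lower by -1.77 ± 0.27, whereas its relative flh-2 was higher by 1.25 ± 0.26, at 3.46 to 3.79 in N2 and 4.11 to 5.29 in mex-3/skn-1. The very early transcripts vet-6 (-2.0 ± 0.40) and vet-1 (-1.39 ± 0.40) and the nuclear receptor gene nhr-2 (-1.72 ± 0.37) were not called without replicates 5 and 7, at -1.48, -1.0 and -1.08, and vet-1 not without replicate 7 alone (-1.12). Other probe sets of vet-1 (-0.32), nhr-2 (-0.54, -0.45 and -0.01) and flh-2 (0.43) were not called. For flh-1 the brightest probe set was not called (-0.92), but a second one was called lower (-1.41). The laminin alpha gene epi-1 was the only lower one of 27 basement membrane genes, near the 3.4% over all genes. It measured 7.50, 7.08, 6.98 and 7.24 in N2 and 4.42, 5.60, 3.90 and 5.27 in mex-3/skn-1. Its groups did not overlap (-2.40 ± 0.35).

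Over all genes 3.4% were lower and 0.73% higher, and without replicates 5 and 7 1.72% and 0.87%. Of 25 cell death genes 5 were lower and 1 higher, and 3 and 1 without replicates 5 and 7. Apart from nuc-1, the lower ones were the nuclease genes crn-3 (-1.75 ± 0.31), crn-1 (-1.43 ± 0.32) and crn-6 (-1.07 ± 0.21) and the phospholipid scrambling gene ced-8 (-1.06 ± 0.27). The call of crn-6 was lost without N2 replicate 1 (-0.95) and that of ced-8 without N2 replicate 1 (-0.96) or mex-3/skn-1 replicate 7 (-0.85). A second probe set was called lower for crn-6 (-1.70) and was not called for crn-3 (-0.42). For ced-5, not called by its brightest probe set, a second one was called higher (1.18). The nuclease gene crn-4 was higher (1.27 ± 0.23), at 4.11 to 4.28 in N2 and 4.79 to 6.26 in mex-3/skn-1. The apoptosis inhibitor gene ced-9 was not called (0.33 ± 0.22). Of 27 chromatin genes 2 were higher and 1 lower, the latter near the share over all genes. The HMG box genes hmg-5 (1.1 ± 0.26) and hmg-3 (1.18 ± 0.32) were higher and hmg-4 was lower (-1.16 ± 0.29). The hmg-3 call was lost without mex-3/skn-1 replicate 5 (0.95) or 8 (1.00). The hmg-4 call was lost without replicates 5 and 7 (-1.02), under quantile normalization (-0.95) and with scan day as a random block (-0.94).

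Egg transcripts were among the largest increases. Of 32 maternal genes active from egg to embryo 3 were higher and 3 lower, against 0.73% and 3.4% of all genes, and without replicates 5 and 7 these counts were 3 and 0. The eggshell chondroitin proteoglycan gene cpg-3 measured 3.15, 3.04, 3.43 and 3.35 in N2 and 8.29, 9.35, 8.64 and 9.34 in mex-3/skn-1. N2 was at the floor in each array, for the largest increase of all probe sets, 5.66 ± 0.23 (adjusted p = 6.65e-37). At 0 min it already differed by 5.13, with means of 5.25 in N2 and 10.4 in mex-3/skn-1. The pie-1/pal-1 arrays at 83 min were at the floor (3.15 to 3.29). Its relative cpg-2 measured 6.14, 6.44, 6.49 and 6.46 in N2 and 8.23, 9.41, 8.18 and 8.87 in mex-3/skn-1 (2.29 ± 0.43), with 1.87 by its second probe set and 2.75 at 0 min.

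The polo-like kinase gene plk-3 likewise differed from the start, by 3.42 at 0 min and 3.49 ± 0.25 at 83 min. It measured 4.10, 4.58, 5.21 and 4.73 in N2 and 8.10, 8.58, 7.62 and 8.25 in mex-3/skn-1, without overlap. In contrast sip-1, which encodes a small heat shock protein, was higher at 83 min but not at 0 min, where its brighter probe set stood at -1.0 and was not called (adjusted p = 0.238 by limma) and its dimmer one was lower by -1.58. At 83 min the brighter one measured 8.48, 9.22, 9.38 and 8.99 in N2 and 11.04, 11.01, 11.18 and 11.33 in mex-3/skn-1, a difference of 2.12 ± 0.41, and the other probe set gave 2.18 ± 0.42. In N2 the sip-1 level dropped from 11.3 at 66 min to 9.02 at 83 min. In mex-3/skn-1 it was 10.6 and 11.1 at these times and reached 8.74 at 122 min.

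Of the maternal genes that were lower, trcs-1 differed by -1.25 ± 0.34 and oma-1, for a zinc finger protein of oocyte maturation, by -1.12 ± 0.34, beside mex-3 itself. The oma-1 call was lost without N2 replicate 1 (-1.1) or 2 (-1.03) or mex-3/skn-1 replicate 5 (-1.02) or 7 (-0.96). Of 35 germline and P granule genes 2 were higher and 1 lower, against 0.73% and 3.4% of all genes, with a median of -0.02. The helicase gene glh-2 (1.04 ± 0.28) and gld-3, for a translational regulator (1.21 ± 0.26), were higher and the Pumilio-type gene puf-5 lower (-1.22 ± 0.36). Other gld-3 probe sets, near the floor, were not called (0.33 and -0.08). The glh-2 call was lost without N2 replicate 1 (0.99) or mex-3/skn-1 replicates 6 (0.91) or 8 (0.92), and that of puf-5 without N2 replicate 2 (-1.12) or mex-3/skn-1 replicates 5 (-0.89) or 7 (-1.11). The P granule gene pgl-1 (-0.36 ± 0.23), the Nanos gene nos-2 (-0.73 ± 0.29) and meg-1 (-0.28 ± 0.26) were not called. Set against pie-1/pal-1 in place of N2, 13 of the 35 germline genes and 13 of the 32 maternal genes were higher and 0 and 1 lower. Over all genes 2.39% were higher and 2.81% lower. Against N2 the higher members were 2 and 3, and a difference from pie-1/pal-1 may lie in either genotype. Among those higher than pie-1/pal-1 were cpg-3 (5.66 ± 0.25) and cpg-2 (5.40 ± 0.47). The gene pos-1, a zinc finger gene of the germline blastomeres, differed by 2.78 ± 0.40 from pie-1/pal-1 but by 0.57 ± 0.37 from N2.

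Other higher genes had various courses. The CCCH zinc finger gene ccch-2 measured 4.00, 4.08, 4.42 and 4.68 in N2 and 7.24, 7.41, 6.63 and 7.14 in mex-3/skn-1, with no overlap (2.81 ± 0.20, adjusted p = 2.44e-21). It peaked in both genotypes, at 6.69 at 41 min in N2 and at 7.33 at 66 min in mex-3/skn-1, and the difference was 0.97 at 66 min and 1.98 at 101 min. The Hsp70-interacting protein gene hip-1 was higher by 2.74 ± 0.20 and the ribosomal S6 kinase gene rskn-1 by 2.44 ± 0.23, and both were already higher at 0 min, by 1.25 and 1.49. The ubiquitin-fold modifier gene ufm-1 was higher by 2.61 ± 0.28. The genes C35D6.4 (2.48 ± 0.21), F38C2.7 (2.46 ± 0.25), F27B3.6 (2.33 ± 0.24) and Y51H7C.3 (2.21 ± 0.27), for which no role is given here, were among the 15 largest increases too. For ufm-1 the N2 arrays measured 5.93, 5.90, 5.87 and 6.05 and the mex-3/skn-1 arrays 8.46, 8.79, 8.43 and 8.50. Both groups were tight and far apart, and at 0 min the difference was -0.11.

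The 14-3-3 gene par-5, a member of the PAR polarity system, was higher in all 3 of its probe sets, by 2.00 ± 0.19, 1.97 ± 0.20 and 1.85. The brightest measured 9.33, 10.11, 10.02 and 9.77 in N2 and 11.59, 11.79, 12.02 and 11.72 in mex-3/skn-1. Over the time course it had dropped in N2 from 11.7 at 0 min to 9.81 and stood at 11.5 and 11.8 in mex-3/skn-1. Of 16 polarity genes 2 were higher and none lower, against 0.73% and 3.4% of all genes. The other higher one was the G protein alpha subunit gene goa-1 at 1.00 ± 0.34, a call that was lost on leaving out any 1 of the 8 arrays (0.94 to 1.06). Other goa-1 probe sets were not called (0.35 and 0.17). The myosin gene nmy-2 (-0.18 ± 0.28) and the spindle genes lin-5 (-0.62 ± 0.28) and gpr-2 (-0.70 ± 0.28) were not called.

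Among 30 heat shock and chaperone genes 4 were lower and 1, sip-1, higher, against 3.4% and 0.73% of all genes. The inducible genes hsp-16.41 and hsp-16.2 were lower through some N2 arrays only. The former measured 5.65, 4.63, 2.75 and 2.83 in N2 and 2.68 to 2.98 in mex-3/skn-1, so that N2 replicates 1 and 2 stood alone above the floor. Its call was lost without N2 replicate 1 (-0.57) or 2 (-0.91), and that of hsp-16.2 likewise (-0.53 and -0.84). For the endoplasmic reticulum chaperone gene hsp-3 (-1.83 ± 0.54) and the J-domain gene dnj-12 (-1.58 ± 0.47) the call was lost without mex-3/skn-1 replicate 5 (-1.59 and -1.46) or 7 (-1.65 and -1.2). It was lost also without N2 replicate 1 for hsp-3 (-1.68) and without N2 replicates 2 (-1.5) or 4 (-1.56) for dnj-12. A second dnj-12 probe set, near the floor, was not called (-0.08). The hsp-90 transcript differed by 0.81 ± 0.42 and was not called, while its second probe set was higher by 1.45.

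**Figure D4:**
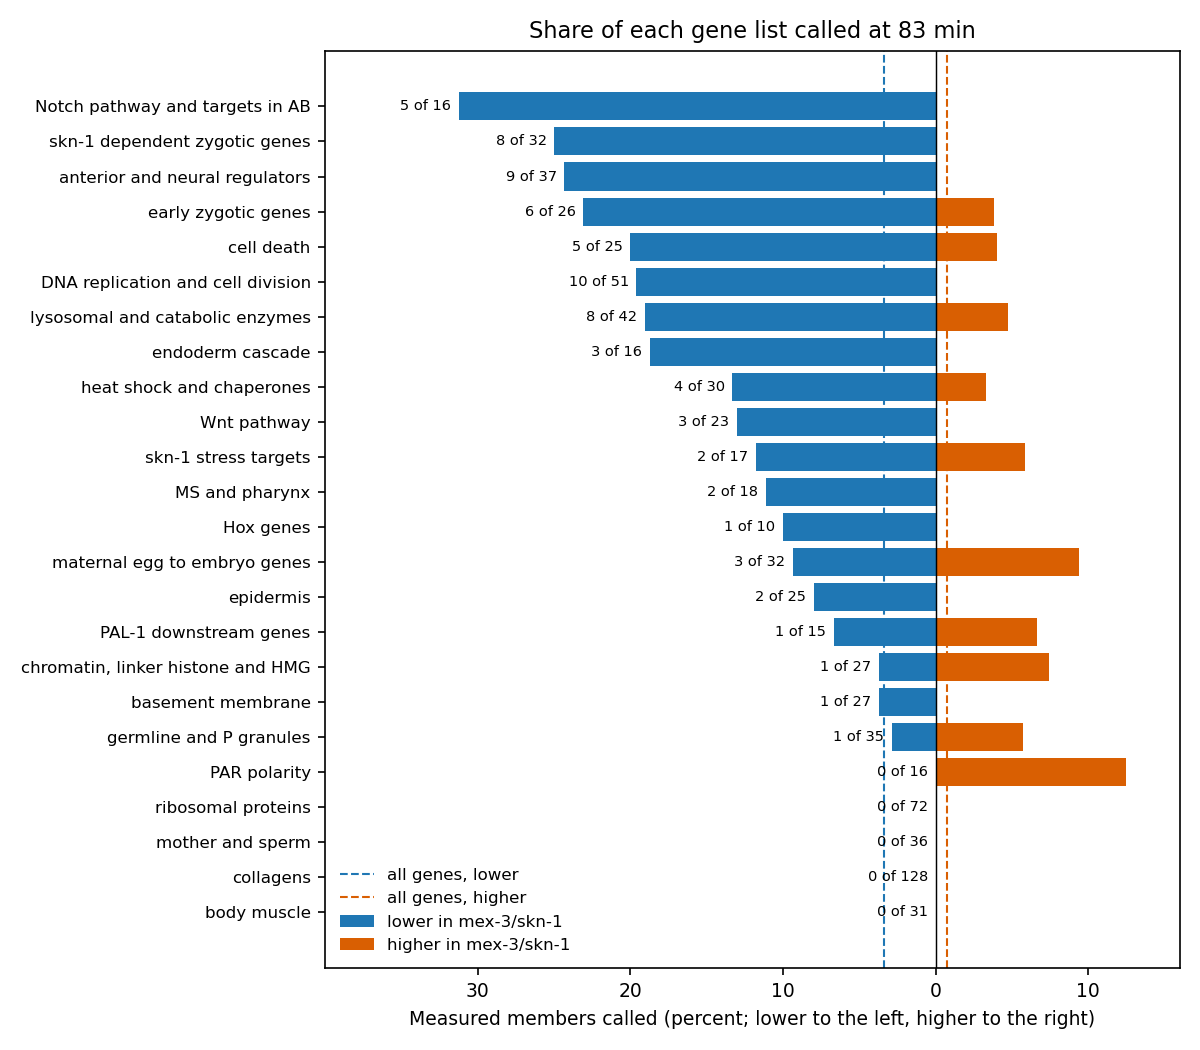
Percent of the measured genes of each list that were lower (blue, to the left) or higher (orange, to the right) in mex-3/skn-1 at 83 min, with the number lower beside each bar. Dashed lines mark the shares over all genes, 3.4% lower and 0.73% higher, and body muscle, collagens, ribosomal proteins and genes of mother and sperm have no called member.

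Lists of later or adult genes, used to check the sample, held mostly genes near the floor in both genotypes, 113 of 128 collagen genes and 25 of 36 genes of the adult soma and sperm, where a call could hardly arise. None of either list was called by limma's test, and 11 and 5 of them had an unadjusted p under 0.05. The vitellogenin genes vit-1 (3.22 in N2 and 3.3 in mex-3/skn-1), vit-2 (2.35 and 2.54), vit-5 (3.44 and 3.61) and vit-6 (3.51 and 3.67) and the adult collagen gene col-19 (2.62 and 2.74) were at the floor. Sperm protein genes such as msp-55 (4.26 and 4.08) were barely above it.

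The neighbouring times were measured on other arrays of both genotypes. At those times too the genotypes shared no scan day and no chip lot. A recurring difference therefore cannot be told apart from one of scan day or chip lot. Of the 763 lower probe sets 550 were called lower at 101 min (72.1%), 318 at 66 min (41.7%) and 299 at 53 min (39.2%). These are 32.1%, 32.2% and 33.6% of the probe sets called lower at those times, which made up 7.6%, 4.39% and 3.94% of all. At 0 min 84 of the 763 were lower (11%), where 3.91% of all probe sets were.

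Of the 151 higher probe sets 66 were called higher at 101 min (43.7%), 54 at 66 min (35.8%) and 72 at 53 min (47.7%). They are 32.5%, 35.3% and 19.3% of the probe sets called higher at those times, which made up 0.9%, 0.679% and 1.66% of all. At 0 min 9 of them were higher (5.96%), where 0.133% of all probe sets were, and 6 were lower. With an opposite call, 4 of the 763 lower probe sets were higher at 53 min and none at 66 or 101 min, and of the 151 higher ones 1 was lower at 53 min, 1 at 66 min and none at 101 min.

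The called probe sets were also set against the change of wild-type embryos from 0 to 66 min, a measure chosen after seeing the data that uses no array of 83 min. Of the 763 lower probe sets 276 had risen in N2 by 66 min (36.2%) and 69 had fallen (9.04%). Over all probe sets 4.3% had risen and 6.96% had fallen. Of the 151 higher ones 14 had risen (9.27%) and 43 had fallen (28.5%). Of the lower probe sets 261 had a mean under 4 in mex-3/skn-1 and 5 in N2, both at 83 min. Lower calls thus came almost only from transcripts measured in N2 at 83 min, which favours those that had risen. The shares over all probe sets are therefore no matched background, and no conclusion is drawn from them.

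Some genes change fast in N2 around 83 min. Between the N2 arrays labelled 66 and 83 min ceh-43 moved from 5.11 to 8.48, pha-4 from 4.14 to 6.23, elt-1 from 4.47 to 7.13 and ccch-2 from 6.36 to 4.30, all of them larger steps than between 53 and 66 min. With the N2 arrays of 66 min as the reference for mex-3/skn-1 at 83 min, 42 of the 96 called probe sets named here lost their call, among them ccch-2 (0.75), dve-1 (-0.77), pha-4 (-0.61) and ceh-36 (-0.98). With those of 101 min 16 lost it.

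**Figure D5:**
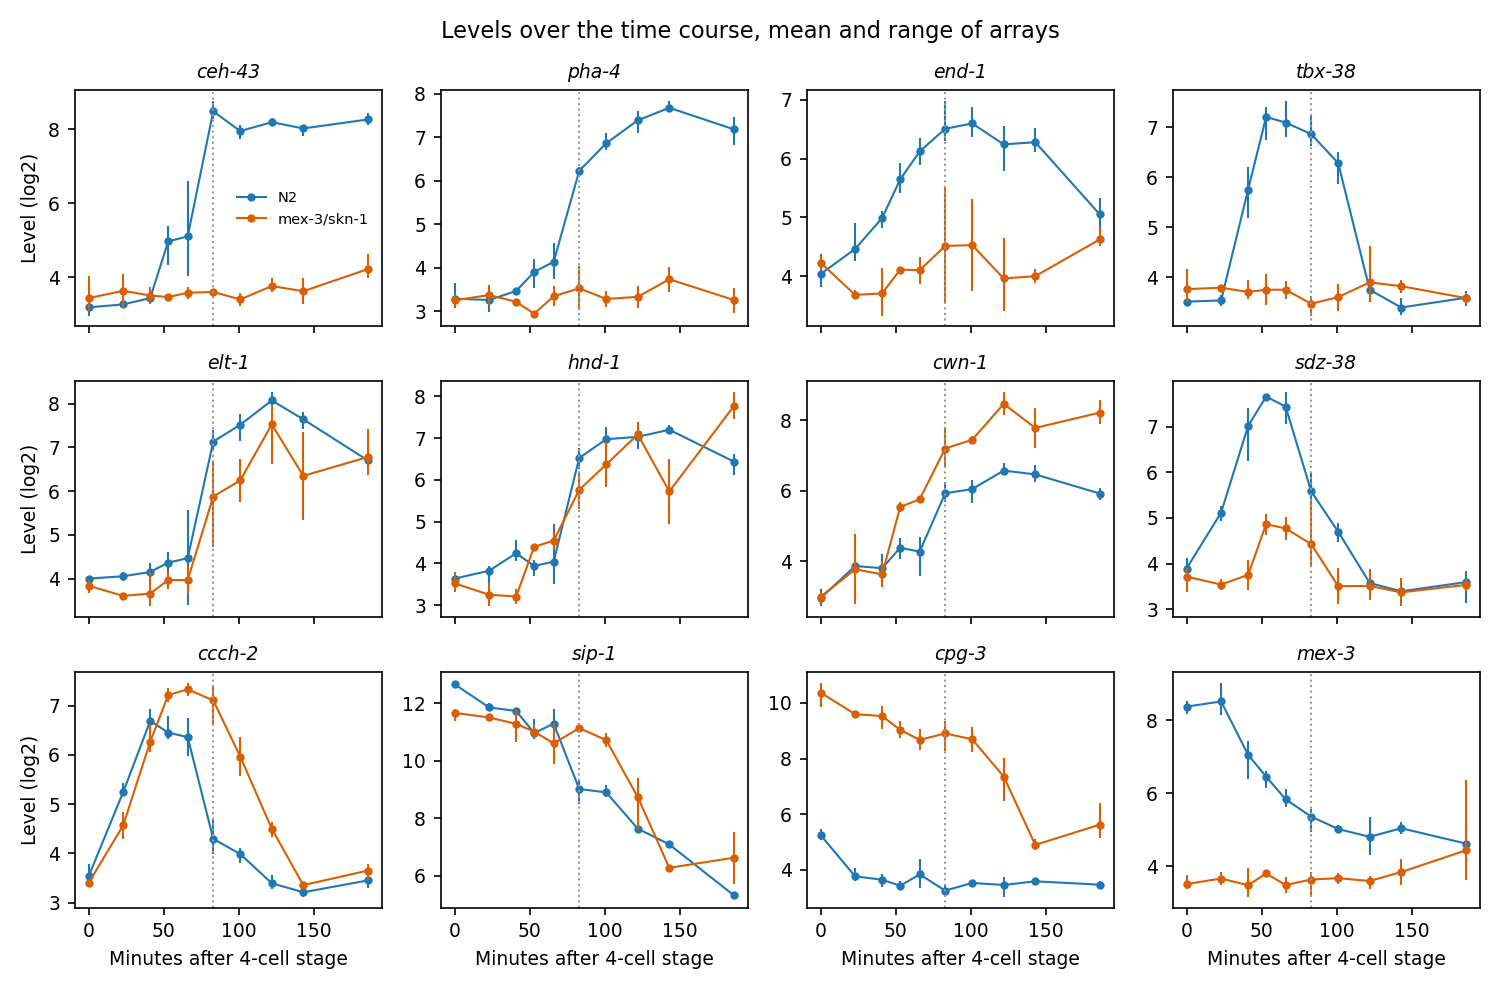
Mean log2 level with the range of arrays (vertical bars) of 12 transcripts in N2 (blue) and mex-3/skn-1 (orange) over 10 times, in minutes after the 4-cell stage, with a dotted line at 83 min. N2 gains ceh-43, pha-4, end-1 and tbx-38 while mex-3/skn-1 stays near 4, elt-1 and hnd-1 rise in both, and ccch-2 and sip-1 decline later in mex-3/skn-1.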

How the data were processed

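Staged embryos were hybridised to Affymetrix C. elegans arrays, 1 array per sample. The deposited table holds 1 value per probe set, read as log2 from its range. The authors' summarisation and scaling steps are not given in the sources used here. The deposited array description files (unit other: text entries) gave scan day, chip lot, rehybridisation, hybridised amount and embryo number. Groups and times came from the labels. After leaving out 77 control probe sets, a mean for each of the 40 genotype and time groups was fitted to all 123 arrays by limma's moderated test (version 3.58.1, R version 4.3.3; 83 residual degrees of freedom). P-values were adjusted by Benjamini and Hochberg over 22548 probe sets. Calls need an adjusted p under 0.05 and at least 2-fold. Of the probe sets 20766 have 1 gene symbol in the platform table, and the brightest over the 8 arrays stands for a gene. The steps were tested on simulated data. The number of arrays limits the precision.

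Named genes are the 15 largest rises and 15 largest falls among called, named, non-overlapping probe sets, the targeted genes, and of each list its called members (the 6 with the smallest adjusted p where more) with up to 3 others of the highest level, plus cell type markers. Members and lists were chosen with earlier results of these data known. Alternatives were other scalings, fits, filters, fold minima, N2 references and left-out arrays.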

Additional observations from a re-analysis of the deposited data

Results flagged for a closer look

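In 22 of 376 groups of 4 arrays tested, 1 array lay far from the other 3, and chance gives about 1 in 20 groups. Among mex-3/skn-1 arrays, replicate 7 stood apart low for sma-1 (5.08), sdz-33 (4.23), sdz-4 (5.58), scav-3 (5.98) and meg-1 (4.81), and high for fkh-2 (4.21), lag-2 (3.57) and unc-54 (4.55). Replicate 5 was low for unc-60 (6.77), his-72 (9.93) and myo-3 (2.29). Replicate 6 was high for F38C2.7 (8.32) and hlh-14 (4.42) and low for goa-1 (6.84) and cyb-3 (10.26). Among N2 arrays, replicate 1 was low for F38C2.7 (5.33), cpg-2 (6.14) and sdz-18 (7.49) and high for ceh-51 (7.74). Replicate 3 was low for acs-3 (7.06) and sma-1 (5.83) and high for hmg-5 (5.51).

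Of 15 named probe sets called at both 0 and 83 min, 5 had a difference between mex-3/skn-1 and N2 that itself changed between these times by limma's test. From 0 to 83 min it moved by -2.18 for cdc-25.3 (adjusted p = 0.00148), by 1.5 for hip-1 (adjusted p = 5.18e-04) and by 3.76 for a sip-1 probe set (adjusted p = 1.46e-05). It moved by 3.13 for mex-3 (adjusted p = 0.00677) and by 2.31 for crn-4 (adjusted p = 2.07e-06), which was lower at 0 min by -1.04 and higher at 83 min.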

How the results depend on the processing

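In place of 914 calls, other fits, filters, N2 references and centring on the array median gave 764 to 1286 calls, of which 315 to 914 were among the 914. Leaving out 1 array gave 718 (without mex-3/skn-1 replicate 7) to 1137 (without replicate 6) calls, with 130 to 186 higher and 532 to 1003 lower. Centring on the brighter probe sets gave 742 (346 higher, 396 lower) and quantile normalization 757 (315 higher, 442 lower). Without mex-3/skn-1 replicates 5 and 7 together 551 were called, 364 of them lower. With no fold minimum 1937 were called (416 higher, 1521 lower) and with a minimum of 4-fold 119 (16 higher, 103 lower). With N2 of 101 min as the reference 258 were higher. With N2 of 66 min the sign turned for sip-1 (-0.25 and -0.16 in its probe sets), elt-1 (1.41), hnd-1 (1.72), gld-3 (-0.44), goa-1 (-0.087), cdc-25.2 (0.27), ced-8 (0.33), prdx-2 (-0.021) and hlh-14 (0.13). With N2 of 101 min it turned for hsp-16.41 (0.19), hsp-16.2 (0.054) and lin-32 (-1.37). Replacing the reference changes the stage as well as the arrays, and the cause was not tested. Of 96 named called probe sets 71 kept their call without replicates 5 and 7, 81 under quantile normalization and 78 with centring on brighter probe sets and 88 with scan day as a random block, which ended the calls of hmg-4 (-0.94), ced-8 (-0.84), puf-5 (-1.21), sdz-33 (-0.99), glh-2 (0.98), crn-6 (-0.9997), hsp-16.41 (-1.05) and prdx-2 (0.85) and called cwn-1 (1.30) and pal-1 (1.22). No recorded scan day held arrays of both genotypes, so the random block cannot separate scan day from genotype. No paired analysis was possible because the groups share no replicate numbers. Levels near the floor limit what can be read as a fold.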
